A study of Mus musculus with 30 samples.

Results

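The comparison of the phthalate monoester MEHP alone with its matched vehicle in cultured mouse fetal testis used 12 of the 30 libraries of the study. Its members were chosen by label: 6 libraries carried the treatment label MEHP, and 6 carried the vehicle label and a second number above 500 in their titles, the range in which all MEHP libraries lie. The tissue was testis of C57BL/6 fetuses at gestational day 14, freed of the mesonephros and held for 24 h on a culture insert in supplemented DMEM/F12 medium. MEHP, mono-(2-ethylhexyl) phthalate, was given at 100 µM, and every culture of the study, vehicle included, held DMSO at a dilution of 1 in 4000. Values from 9 other libraries are used at the end: 5 cultures with all-trans retinoic acid (ATRA) at 1 µM and 4 with MEHP and ATRA together at those doses, all with second title numbers in the lower range. The other 9 vehicle libraries, also of the lower range, entered the fit and are in no contrast of the main analysis. Their mean level is given for Asic4 and Cytip at the end. An alternative that adds them to the vehicle group is given among the limits. The labels do not say what the title numbers stand for, whether a library came from 1 testis or several, or how many animals or litters stand behind a group. All p-values therefore measure only the spread between these libraries.

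MEHP is formed from the plasticizer di-(2-ethylhexyl) phthalate by hydrolysis of an ester bond, and it is regarded as the active metabolite of that compound in the testis. It can activate peroxisome proliferator-activated receptors (PPARs), nuclear receptors that pair with retinoid X receptors and switch on genes of fatty acid uptake, storage and oxidation. Cholesterol and fatty acid synthesis is controlled by another set of factors, the SREBPs, which are released from membranes when sterol in the endoplasmic reticulum falls and then switch on the enzymes of the pathway. In the fetal testis, Sertoli cells enclose the germ cells in cords and secrete anti-Müllerian hormone, while Leydig cells between the cords turn cholesterol into androgens. In the mouse fetus the Leydig cells make androstenedione, and its conversion to testosterone takes place in Sertoli cells.

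The libraries held 17787871 to 20680365 counts with MEHP and 17551454 to 21936882 counts in vehicle. The labelled tissue carried its defining markers in all 12 libraries. The summed level of 33 Sertoli cell genes was 5162 to 6615 counts-per-million units (CPM) with MEHP and 5157 to 7782 CPM in vehicle. That of 21 Leydig cell and steroid genes was 3468 to 4372 CPM with MEHP and 3530.3 to 4955 CPM in vehicle. Germ cell content differed between libraries of the same group and went with the first number of the title, of which there were 4. The summed level of 29 germ cell genes was 1832 CPM with MEHP and 2238 CPM in vehicle for the lowest first number, 1757 and 1870.0 CPM against 1864 and 1987 CPM for the next, 1039 CPM against 1213 CPM for the one after it, and 931 and 972 CPM against 1241 and 1397 CPM for the highest. In bulk tissue, fewer cells of a type and less RNA per cell cannot be told apart.

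Of 19323 genes tested with edgeR's quasi-likelihood test over all 30 libraries, 912 passed an adjusted p of 0.05 for MEHP against its matched vehicle, which is 4.72%. MEHP raised 556 genes (2.88% of those tested) and lowered 356 (1.84%). Most changes were small: the median size was 0.46 on the log2 scale, 512 of the 912 were under 0.5, and 49 rises and 54 falls were of at least 1, that is 2-fold. The median over all genes tested was −0.01. In 355 of the genes tested, also 1.84%, the 6 MEHP libraries all lay above or all lay below the 6 vehicle libraries, and this held for 217 of the genes that rose and 109 of those that fell. A fit of the 12 libraries alone, which has 10 rather than 25 residual degrees of freedom, called 439 of 17467 genes, and 436 of these were among the 912. Of the 912, 544 passed in every fit that left out 1 of the 30 libraries. Below, a call that was lost in the 12-library fit is marked as such. Losses without 1 library are described for some calls only. The calls of Il17rd, Acvr1b, Ccnd2, Pfkl, Myh11, Hilpda, Slc25a35, Slc25a38, Hmox1, Osgin1, Ftl1 and Abcc1 were lost in both ways. The shares over all genes, 2.88% higher and 1.84% lower, are the background for each list count below.

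**Figure D1:**
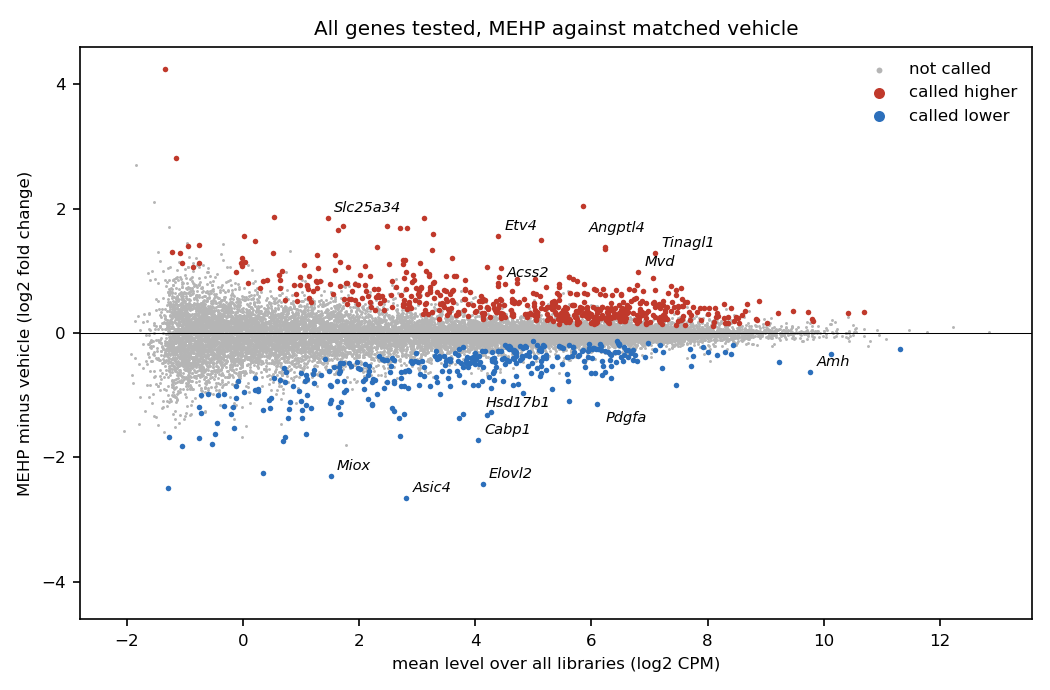
Each dot is 1 of 19323 genes: the x axis is the mean level over all 30 libraries in log2 CPM and the y axis the log2 fold change of MEHP against matched vehicle. Red dots are the 556 genes called higher, blue dots the 356 called lower, and grey dots genes that did not pass; the named enzymes of lipid metabolism lie among the rises at moderate and high levels, and Elovl2, Asic4 and Miox among the falls.

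The genes that rose most with MEHP were a mixture of fuel metabolism, signalling and membrane genes. The ranking took called genes with a mean of at least 2 CPM (log2 of 1) over all 30 libraries, ATRA cultures included. Genes with clone or model names, such as those in Gm or Rik, were left out of it. Coordinates are those of the count tables, 91.37% of which are the same as in GENCODE M21 (GRCm38). Angptl4, a PPAR target that encodes a secreted inhibitor of lipoprotein lipase (chr17:33773750-33781575), stood at 118 to 159 CPM (median 139) with MEHP and 47.1 to 55.4 CPM (median 53.5) in vehicle. The groups were far apart, and the log2 fold change was 1.39 ± 0.07 (± SE; adjusted p = 4.4e-14, edgeR). Slc25a34, an orphan member of the mitochondrial carrier family, rose from a low level: it had 3.79 to 6.92 CPM (median 5.7) with MEHP and 1.14 to 2.16 CPM (median 1.5) in vehicle (1.85 ± 0.16). The proapoptotic BH3-only gene Bik had 7.25 to 10.3 CPM (median 9.09) with MEHP and 1.86 to 3.23 CPM (median 2.86) in vehicle (1.72 ± 0.15, adjusted p = 5.61e-09). Tinagl1, which encodes a secreted glycoprotein of basement membranes, had 169 to 211 CPM (median 184) with MEHP and 68.6 to 95.6 CPM (median 71.7) in vehicle, and every MEHP library was above every vehicle library (1.28 ± 0.09). Other large rises were those of the sodium channel subunit gene Scn3b (1.84 ± 0.25), Cytip, whose product binds cytohesins (1.69 ± 0.17), the tetraspanin gene Tspan32 (1.68 ± 0.18), Sowahd (1.65 ± 0.21), the small GTPase gene Diras2 (1.59 ± 0.16), the adhesion protein gene Mpzl2 (1.34 ± 0.17), the sodium/proton exchanger gene Slc9a2 (1.26 ± 0.29) and the microvillus myosin gene Myo7b (1.39 ± 0.28). Of the 15 largest rises, which include Stra8 and Etv4 described below, Myo7b alone did not pass in the 12-library fit (adjusted p = 0.0613). Mpzl2 shares 30.7% of its exon bases with the opposite-strand gene Gm48840.

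The largest falls were led by Asic4, Elovl2 and Miox. Elovl2, the elongase that extends long polyunsaturated fatty acids (chr13:41182495-41220405), stood at 4.1 to 9.1 CPM (median 5.78) with MEHP and 25.5 to 40.8 CPM (median 30.3) in vehicle. Its highest MEHP value was far below its lowest vehicle value (−2.43 ± 0.15, adjusted p = 4.19e-12). Asic4, of the acid-sensing ion channel family (chr1:75450436-75474343), had 1.63 to 3.01 CPM (median 1.98) with MEHP and 8.8 to 16.7 CPM (median 14.2) in vehicle (−2.65 ± 0.19), and Miox, which encodes the enzyme that opens the ring of myo-inositol (chr15:89334398-89337015), had 0.635 to 2.08 CPM (median 1.27) with MEHP and 4.81 to 9.86 CPM (median 6.11) in vehicle (−2.29 ± 0.26). In both, all 6 MEHP libraries lay below all 6 vehicle libraries. In GENCODE M21, 18.1% of the exon bases of Asic4 are shared with the opposite-strand gene Gm37264, and the strand setting of the counting is not given in the sources used here, so their reads cannot be told apart. Cabp1, a calcium-binding relative of calmodulin, had 7.47 to 9.67 CPM (median 8.38) with MEHP and 21.98 to 36.3 CPM (median 25.8) in vehicle (−1.73 ± 0.15). The other large falls were those of Kcng2 (−1.37 ± 0.21), a potassium channel subunit, Grm7 (−1.36 ± 0.24) and Grin2c (−1.30 ± 0.25), both glutamate receptor genes, and Rtn4r (−1.26 ± 0.20), the Nogo receptor gene. Also among them were the transcription factor gene Mafa (−1.32 ± 0.17) and the Sertoli cell homeobox gene Rhox8 (−1.27 ± 0.15). The others were the dicarboxylate transporter gene Slc13a2 (−1.66 ± 0.16), 26.2% of whose exon bases are shared with the antisense gene Slc13a2os, Sgpp2 (−1.37 ± 0.14), Minar1 (−1.62 ± 0.25), the chondromodulin gene Cnmd (−1.30 ± 0.19) and Lrrc75b (−1.29 ± 0.12). All 15 passed in the 12-library fit.

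**Figure D2:**
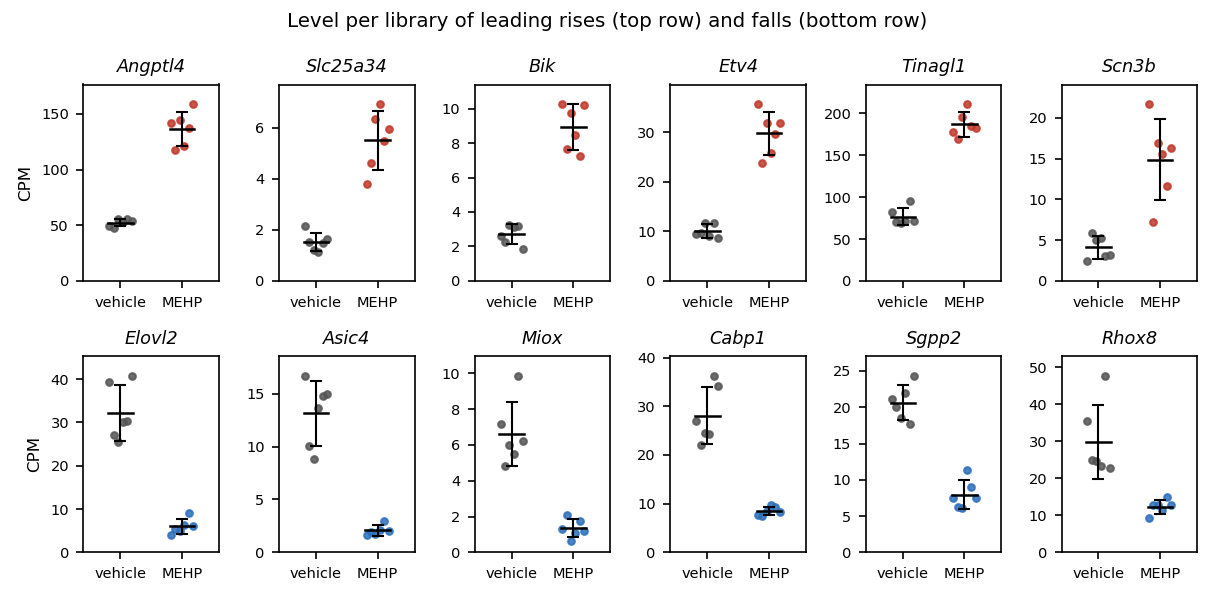
Dots are single libraries (6 vehicle in grey, 6 MEHP in colour), with the level in CPM on the y axis from 0; the line is the mean and the bar 1 SD. In each of the 12 genes shown the MEHP and vehicle libraries do not overlap.

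Most enzymes of cholesterol synthesis rose with MEHP, from the start of the pathway to its end. Of 24 enzymes and associated proteins tested, 20 rose with MEHP and 0 fell, against 2.88% of all genes called higher. All 24 had a log2 fold change above 0, with a median of 0.46 where the median over all genes tested was −0.01. All 20 calls also passed in the 12-library fit and in every fit without 1 library. Which genes were looked at was decided with these rises already known, so the count describes the pathway and is no independent test of it. The start of the pathway builds mevalonate from acetyl-CoA units. There the first condensing enzymes were called, with Acat2 at 120.4 to 201 CPM (median 153) with MEHP and 81.4 to 112 CPM (median 91.1) in vehicle (0.77 ± 0.09, adjusted p = 1.05e-06) and Hmgcs1, the cytosolic HMG-CoA synthase, at 460.1 to 626 CPM (median 509) with MEHP and 322 to 472 CPM (median 383) in vehicle (0.47 ± 0.08). The kinases and the decarboxylase that turn mevalonate into isoprenoid units followed, with Mvk at 0.31 ± 0.06, Pmvk at 0.63 ± 0.08 and Mvd at 0.97 ± 0.08. Mvd showed the largest change of the pathway, from a median of 85.5 CPM in vehicle to 163 CPM with MEHP (adjusted p = 5.4e-10), with no overlap. Idi1 (0.49 ± 0.08) and Fdps (0.46 ± 0.07) rose as well, while Ggps1, which leads to geranylgeranyl groups and away from sterols, did not pass (0.07 ± 0.08, adjusted p = 0.766). Fdps shares 26.7% of its exon bases with the annotated gene Gm43738 on the same strand.

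Upstream sequences of 4 of these genes are shown because their products stand at the start, middle and end of the pathway and their genes rose together. They are the 250 bases before the start of transcription from RefSeq (GRCm38.p6), written 5′ to 3′ on the strand of the gene. Capitals mark the sterol regulatory element searched (TCACNCCAC) and the CCAAT box, on either strand, so a CCAAT box on the other strand reads ATTGG.
Hmgcs1 (chr13:119690101-119690350, plus strand): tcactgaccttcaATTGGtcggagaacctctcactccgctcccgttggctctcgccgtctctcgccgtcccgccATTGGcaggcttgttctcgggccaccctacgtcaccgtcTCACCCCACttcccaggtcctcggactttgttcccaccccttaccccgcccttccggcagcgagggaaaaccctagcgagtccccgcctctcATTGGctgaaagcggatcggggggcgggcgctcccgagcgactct
Mvd (chr8:122443423-122443672, minus strand): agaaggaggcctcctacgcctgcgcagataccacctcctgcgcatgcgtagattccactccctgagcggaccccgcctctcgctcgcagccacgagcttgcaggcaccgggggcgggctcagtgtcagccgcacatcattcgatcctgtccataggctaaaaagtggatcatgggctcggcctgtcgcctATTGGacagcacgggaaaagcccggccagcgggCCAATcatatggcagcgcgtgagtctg
Lss (chr10:76531355-76531604, plus strand): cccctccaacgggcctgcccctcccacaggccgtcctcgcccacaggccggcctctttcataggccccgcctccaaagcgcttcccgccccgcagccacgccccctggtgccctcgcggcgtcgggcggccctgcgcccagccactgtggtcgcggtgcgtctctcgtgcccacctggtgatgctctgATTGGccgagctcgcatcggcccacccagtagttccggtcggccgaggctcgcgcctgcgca
Sc5d (chr9:42264301-42264550, minus strand): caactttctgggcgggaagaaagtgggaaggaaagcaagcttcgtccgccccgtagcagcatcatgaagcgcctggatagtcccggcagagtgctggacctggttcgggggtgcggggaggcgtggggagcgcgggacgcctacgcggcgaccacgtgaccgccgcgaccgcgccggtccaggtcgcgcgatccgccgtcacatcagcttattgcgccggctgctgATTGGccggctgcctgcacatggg
In these 250 bases the element occurs once, 137 bases before the start of Hmgcs1, and CCAAT boxes number 3 in Hmgcs1, 2 in Mvd, 1 in Lss and 1 in Sc5d. RefSeq promoters, of 300 bases each, were at hand for 19 of the 24 genes. A gene with several promoters was counted once, if any of them held the motif. A CCAAT box lay in 16 of the 19 genes (84.2%), against 42.3% of all tested genes with a promoter, and the sterol element in 1 of the 19 (5.26%), against 1.46%. Of the 30 PPAR target genes described below that had a promoter, 2 held the sterol element (6.67%), a higher share. Acat2, Erg28 and Pgrmc1 had no CCAAT box in this window. The direct repeat bound by PPARs, searched as AGGNCANAGGNCA, was in 0 of the 19, against 0.346% of all. A match to such letters is a description of the sequence, not of binding.

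From squalene to cholesterol, 12 of 15 genes rose. The branch to sterols opens with squalene synthase, Fdft1, at 199.6 to 264 CPM (median 216) with MEHP and 162 to 196 CPM (median 186) in vehicle (0.28 ± 0.06, adjusted p = 0.00345), and Sqle, the epoxidase that is the second control point of the pathway, at 209 to 283 CPM (median 226) with MEHP and 156 to 202 CPM (median 179.5) in vehicle (0.43 ± 0.07). In both genes all MEHP libraries lay above all vehicle libraries. Fdft1 shares 18.3% of its exon bases with the opposite-strand gene Ctsb. Lss, which closes the ring to lanosterol, had 219 to 328 CPM (median 246) with MEHP and 132 to 187 CPM (median 165) in vehicle (0.68 ± 0.08, adjusted p = 1.31e-06). The enzymes that trim and reduce lanosterol rose by similar amounts: Cyp51 (0.54 ± 0.08), Tm7sf2 (0.74 ± 0.10), Msmo1 (0.52 ± 0.10), Nsdhl (0.63 ± 0.09), Hsd17b7 (0.36 ± 0.07) and the scaffold gene Erg28 (0.37 ± 0.06). At the end of the pathway, Sc5d had 72.9 to 115 CPM (median 89.4) with MEHP and 50.5 to 65.6 CPM (median 54.8) in vehicle (0.69 ± 0.08), and Dhcr7 had 0.48 ± 0.07. Ebp (0.19 ± 0.10), Lbr (0.16 ± 0.07) and Pgrmc1 (0.05 ± 0.06) did not pass.

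Genes that sense and import sterol rose in part. Of 26 tested, 7 rose and 0 fell. The sterol carrier gene Stard4 (0.61 ± 0.08) and Insig1 (0.42 ± 0.07), whose product retains the SREBP complex in the endoplasmic reticulum, were among them. The calls of Npc2, Lrp8 and Soat1 were lost in the 12-library fit (adjusted p = 0.111, 0.102 and 0.167) and in 4, 8 and 15 of the 30 leave-one-out fits, with adjusted p reaching 0.0737, 0.0778 and 0.133. The SREBP genes themselves did not pass, with Srebf2 at 0.21 ± 0.07 (adjusted p = 0.097) and Srebf1 at 0.12 ± 0.07 (adjusted p = 0.445), nor did the efflux transporter gene Abca1 (0.23 ± 0.09, adjusted p = 0.156).

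Of 12 genes of fatty acid synthesis tested, 3 rose and 0 fell: Acss2, which makes acetyl-CoA from acetate, at 56.03 to 76.5 CPM (median 67.7) with MEHP and 32.2 to 40.01 CPM (median 35.1) in vehicle (0.91 ± 0.07, adjusted p = 2.65e-10), Acly, which makes it from citrate, at 761 to 889.8 CPM (median 839) with MEHP and 606 to 719 CPM (median 656) in vehicle (0.35 ± 0.05), and the fatty acid synthase gene Fasn at 839 to 1113 CPM (median 992) with MEHP and 550.1 to 889 CPM (median 796) in vehicle (0.34 ± 0.09, adjusted p = 0.025). The 2 acetyl-CoA genes showed no overlap between groups, while the call of Fasn was lost without MEHP replicate 1 (adjusted p = 0.0821) and in the 12-library fit (adjusted p = 0.112). Among 20 elongases, desaturases and their partners, 9 rose, and Elovl2 was the single fall. Elovl6, which extends palmitate, had 197 to 271 CPM (median 225) with MEHP and 151 to 181 CPM (median 174) in vehicle (0.43 ± 0.06). The desaturases Fads1 (0.40 ± 0.06), Fads2 (0.33 ± 0.08) and Scd2 (0.34 ± 0.07) and the elongase Elovl3 (0.73 ± 0.15) also rose; Fads2 just missed in the 12-library fit (adjusted p = 0.0509). Scd1, the stearoyl-CoA desaturase, had 186 to 241 CPM (median 218) with MEHP and 144 to 176 CPM (median 164) in vehicle without overlap, yet its call (adjusted p = 0.0465) was lost in 15 of 30 leave-one-out fits, with adjusted p reaching 0.116, and it passed in the 12-library fit (adjusted p = 0.00511). Elovl5, whose product acts on polyunsaturated fatty acids just before Elovl2, did not pass (0.09 ± 0.05, adjusted p = 0.441).

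**Figure D3:**
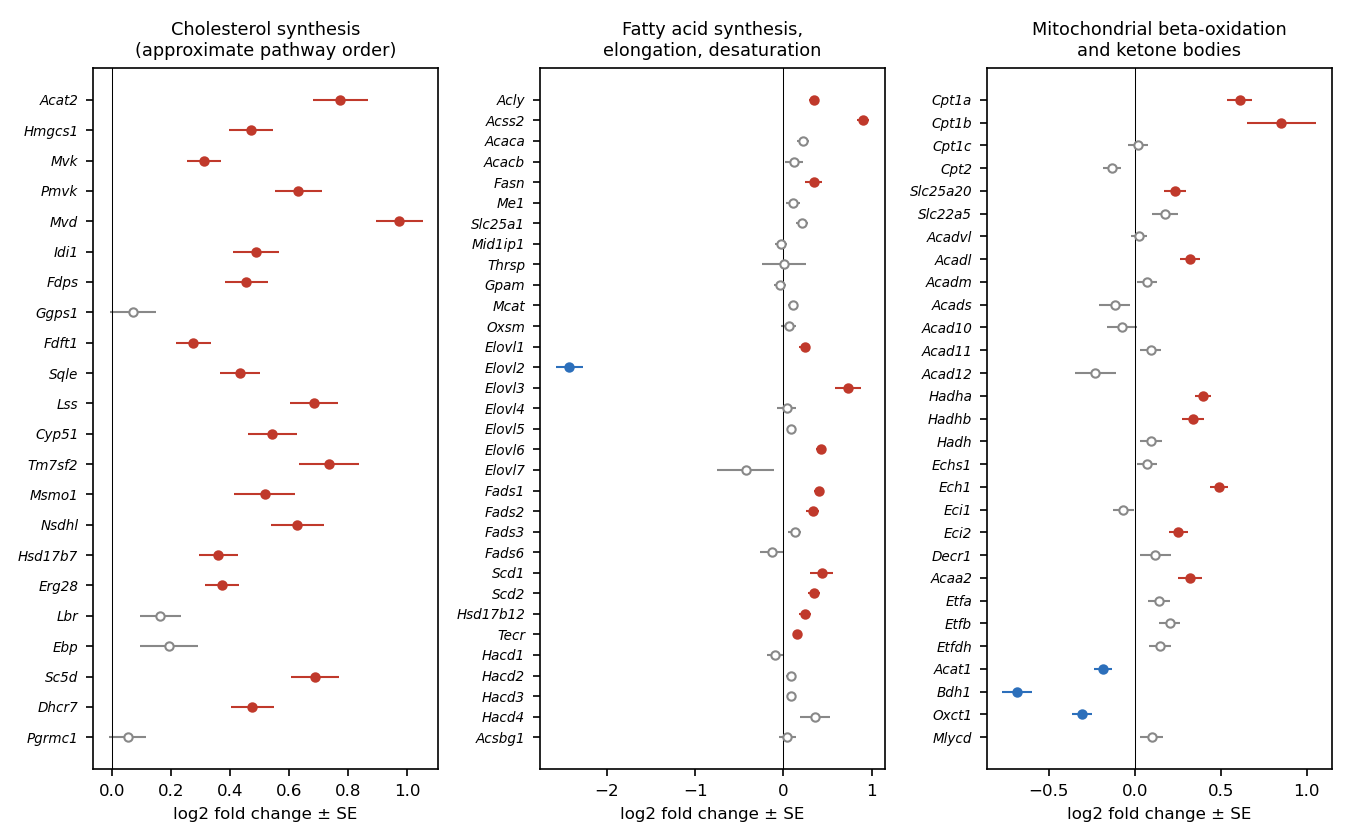
The log2 fold change of MEHP against vehicle (x axis, with SE bars) for tested members of lists of lipid enzymes. The panels show cholesterol synthesis, then fatty acid synthesis with elongation and desaturation, then mitochondrial beta-oxidation with ketone bodies. Filled red and blue dots are called higher and lower, open grey dots did not pass. In the first panel every cholesterol gene shown lies to the right of 0; in the second Elovl2 stands alone at −2.43; in the third Bdh1, Oxct1 and Acat1 lie to the left of 0 while Cpt1a and Hadha lie to the right.

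Some genes of mitochondrial fatty acid oxidation rose. Of 31 genes tested, 11 rose and 3 fell, against 2.88% and 1.84% of all genes. Cpt1a, the carnitine transferase that admits long-chain fatty acids to mitochondria, had 214 to 308 CPM (median 229) with MEHP and 145 to 188 CPM (median 154) in vehicle (0.61 ± 0.07, adjusted p = 6.41e-07), and its muscle paralog Cpt1b, at a low level, had 1.33 to 2.69 CPM (median 1.72) with MEHP and 0.93 to 1.16 CPM (median 0.984) in vehicle (0.85 ± 0.20), with 81.4% of its exon bases shared with the annotated gene Gm44502 on the same strand. Within the spiral, both subunits of the trifunctional protein rose, Hadha with 362 to 452 CPM (median 410.1) with MEHP and 284 to 329 CPM (median 316) in vehicle (0.40 ± 0.05) and Hadhb with 124 to 144 CPM (median 135) with MEHP and 92.2 to 115 CPM (median 108) in vehicle (0.34 ± 0.06). The long-chain dehydrogenase gene Acadl (0.32 ± 0.06), the isomerase genes Ech1 (0.49 ± 0.05) and Eci2 (0.25 ± 0.05) and the thiolase gene Acaa2 (0.32 ± 0.07) rose too. The medium-chain dehydrogenase gene Acadm, the classic PPAR target of this set, did not pass (0.07 ± 0.06, adjusted p = 0.671), nor did Acadvl (0.02 ± 0.04) or Cpt2 (−0.13 ± 0.05, adjusted p = 0.187). Acadvl shares 42.9% of its exon bases with the opposite-strand gene Dvl2.

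The 3 falls on this list were genes of ketone body metabolism. Bdh1, which interconverts the 2 main ketone bodies, had 17.4 to 26.02 CPM (median 20.4) with MEHP and 27.4 to 38.1 CPM (median 33.6) in vehicle, and the 6 MEHP libraries were all below the 6 of vehicle (−0.69 ± 0.09, adjusted p = 2.07e-06). Oxct1, the transferase with which tissues use ketone bodies, had 119 to 144 CPM (median 133) with MEHP and 148 to 179 CPM (median 166) in vehicle, also without overlap (−0.31 ± 0.06, adjusted p = 0.00073). The mitochondrial thiolase gene Acat1 fell by less (−0.19 ± 0.05), a call lost in the 12-library fit (adjusted p = 0.12) and in 11 of 30 leave-one-out fits, with adjusted p reaching 0.116.

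Of 35 tested PPAR targets of lipid uptake, storage and fuel choice, 10 rose and 0 fell, and the median over the list was 0.09. Beside Angptl4, several of the called genes act on acyl-CoA or lipid droplets. The acyl-CoA synthetase gene Acsl4, which prefers arachidonate, had 87.5 to 121 CPM (median 97.3) with MEHP and 55.2 to 76.3 CPM (median 59.2) in vehicle (0.70 ± 0.08, adjusted p = 1.5e-07), and Acsl3 (0.39 ± 0.07) also rose. The lipid droplet coat gene Plin2 had 85.7 to 91.8 CPM (median 89.6) with MEHP and 65.2 to 73.6 CPM (median 68.8) in vehicle with no overlap (0.37 ± 0.05, adjusted p = 2.67e-06). The thioesterase genes Acot1 (0.63 ± 0.08) and Acot2 (0.54 ± 0.08), near-identical neighbours between which counting could split reads, the uncoupling protein gene Ucp2 (0.34 ± 0.07) and Retsat (0.27 ± 0.07) rose. Retsat shares 18.4% of its exon bases with the opposite-strand gene Gm45053. Cd36, the fatty acid translocase gene, had 16.9 to 26.97 CPM (median 23.9) with MEHP and 14.6 to 21.2 CPM (median 15.3) in vehicle (0.46 ± 0.13, adjusted p = 0.0253); its call was lost in the 12-library fit (adjusted p = 0.0682) and in 7 of 30 leave-one-out fits, with adjusted p reaching 0.0701. The call of Hilpda was also lost in the 12-library fit (adjusted p = 0.139). Other well-known targets did not pass: Pdk4 had 0.36 ± 0.16 (adjusted p = 0.292), Fabp3 −0.22 ± 0.12 (adjusted p = 0.41) and Lpl 0.05 ± 0.10 (adjusted p = 0.887). The direct repeat motif was found in the promoter of 1 of 30 of these genes, Fabp1.

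Peroxisomal genes, for which this receptor family is named, held a single call, which is near the share over all genes tested (4.72%). Of 26 tested, 1 rose, the half-transporter gene Abcd3 (0.28 ± 0.06, adjusted p = 0.0039), a call lost in the 12-library fit (adjusted p = 0.0688), and the median over the list was 0.02. Of the receptors and their partners, 2 of 18 passed. The coactivator gene Ppargc1a had 6.41 to 11.5 CPM (median 8.33) with MEHP and 4.51 to 7.86 CPM (median 5.64) in vehicle (0.53 ± 0.15, adjusted p = 0.038), and Ncoa3 had 0.19 ± 0.05 (adjusted p = 0.0249). Both calls were lost in the 12-library fit (adjusted p = 0.121 and 0.05) and in 8 and 4 leave-one-out fits, with adjusted p reaching 0.148 and 0.0598. Ppara (−0.24 ± 0.12, adjusted p = 0.323), Ppard (0.11 ± 0.10, adjusted p = 0.707) and Pparg (0.22 ± 0.22, adjusted p = 0.743) did not pass. Adipocyte genes held no rise: of 9 tested, 1 was called, Cebpa, which fell from a median of 60.4 CPM to 41.6 CPM (−0.66 ± 0.15, adjusted p = 0.00573; adjusted p = 0.069 in the 12-library fit).

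Among 29 other mitochondrial carriers, Slc25a34 was the 1 rise and 4 fell. Slc25a42, which imports coenzyme A, had 22.8 to 27.97 CPM (median 25.2) with MEHP and 27.7 to 48.2 CPM (median 41.2) in vehicle (−0.65 ± 0.10, adjusted p = 0.000109), and Slc25a45 had 9.66 to 14.9 CPM (median 10.98) with MEHP and 15.5 to 22.97 CPM (median 17.5) in vehicle, with no overlap (−0.68 ± 0.11). The falls of Slc25a35 and Slc25a38 were lost in the 12-library fit (adjusted p = 0.135 and 0.176). Slc25a35 shares 31.3% of its exon bases with the opposite-strand gene Rangrf. None of 33 oxidative phosphorylation subunit genes passed; their log2 fold changes ran from −0.12 to 0.06, and 0 of them separated the groups. Of 29 sphingolipid genes, Sgpp2, whose product removes the phosphate of sphingosine phosphate, fell (6.11 to 11.4 CPM (median 7.51) with MEHP and 17.6 to 24.4 CPM (median 20.6) in vehicle), and the ceramide synthase gene Cers4 rose (0.35 ± 0.07, adjusted p = 0.00134). The paralog Sgpp1 did not pass (0.18 ± 0.07, adjusted p = 0.147).

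The gene of an enzyme that makes testosterone, and a related gene, fell with MEHP, while most of the steroid pathway before this step did not pass. Hsd17b3, which converts androstenedione to testosterone, had 73.5 to 102 CPM (median 93.5) with MEHP and 108 to 138 CPM (median 120.5) in vehicle, and all MEHP libraries lay below all vehicle libraries (−0.45 ± 0.08, adjusted p = 0.00023). Hsd17b1, which encodes a related dehydrogenase of Sertoli cells, had 27.7 to 53.2 CPM (median 43.2) with MEHP and 64.4 to 109 CPM (median 86.8) in vehicle (−1.09 ± 0.14, adjusted p = 5.73e-06), also without overlap. Of 21 Leydig cell and steroid genes tested, 2 rose and 2 fell, and the median was −0.01. The rises were Fdx1, the electron donor of the mitochondrial steroid hydroxylases (65.6 to 76.4 CPM (median 69.1) with MEHP and 45.6 to 66.2 CPM (median 52.9) in vehicle; 0.39 ± 0.09), and the reductase gene Ptgr1 (0.45 ± 0.08), and the other fall was Cyp11b1, at few reads (0.526 to 1.26 CPM (median 0.733) with MEHP and 1.17 to 2.38 CPM (median 1.45) in vehicle; −1.09 ± 0.25, adjusted p = 0.00688). All 4 passed in the 12-library fit. Star, the cholesterol transporter of mitochondria, had 40.9 to 67.04 CPM (median 56.2) with MEHP and 31.7 to 70.5 CPM (median 54.5) in vehicle (adjusted p = 0.809). Cyp11a1, the first enzyme of the pathway (0.01 ± 0.12, adjusted p = 0.987), the lyase gene Cyp17a1 (−0.03 ± 0.21, adjusted p = 0.974) and the hormone gene Insl3 (0.05 ± 0.14, adjusted p = 0.92), 64.8% of whose exon bases are shared with Jak3, did not pass either. The summed level of the 21 genes overlapped between groups, as given above.

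Sertoli cell genes changed one by one and in both directions: of 33 tested, 7 rose and 3 fell, and the median was 0.07. The falls were Hsd17b1, Pdgfa and Amh. Pdgfa, whose product signals to the interstitial cells around the cords, had 37.1 to 67.04 CPM (median 49.1) with MEHP and 77.3 to 187 CPM (median 98.4) in vehicle, with no overlap (−1.14 ± 0.16, adjusted p = 1.44e-05); it shares 26.1% of its exon bases with the opposite-strand gene 6330403L08Rik, so reads of the pair cannot be told apart. Amh, the anti-Müllerian hormone gene, had 623 to 1066 CPM (median 732) with MEHP and 921 to 1601 CPM (median 1156) in vehicle, and 5 of 6 MEHP libraries lay below all vehicle libraries (−0.63 ± 0.15, adjusted p = 0.00667). Sox9, whose product activates Amh during sex determination, moved the other way, at 89.5 to 121 CPM (median 116) with MEHP and 62.4 to 102 CPM (median 67.5) in vehicle, with 5 of 6 MEHP libraries above all vehicle libraries (0.62 ± 0.15, adjusted p = 0.0084). These 4 genes passed in the 12-library fit and in every fit without 1 library. The other 6 rises, Erbb4, Cst9, Nr0b1, Fgf9, Aard and Col9a3, lay between 0.40 and 0.59, and none passed in the 12-library fit (adjusted p = 0.0932 to 0.188); each was also lost without 2 to 7 single libraries, MEHP replicate 6 among them for all but Col9a3, at adjusted p values up to 0.109. Fshr (−0.29 ± 0.22, adjusted p = 0.625) and Inha (−0.19 ± 0.13, adjusted p = 0.557) did not pass. Of 7 Rhox homeobox genes tested, Rhox8 fell, at 9.37 to 14.96 CPM (median 12.8) with MEHP and 22.8 to 47.8 CPM (median 24.8) in vehicle with no overlap, and the other 6 did not pass.

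**Figure D4:**
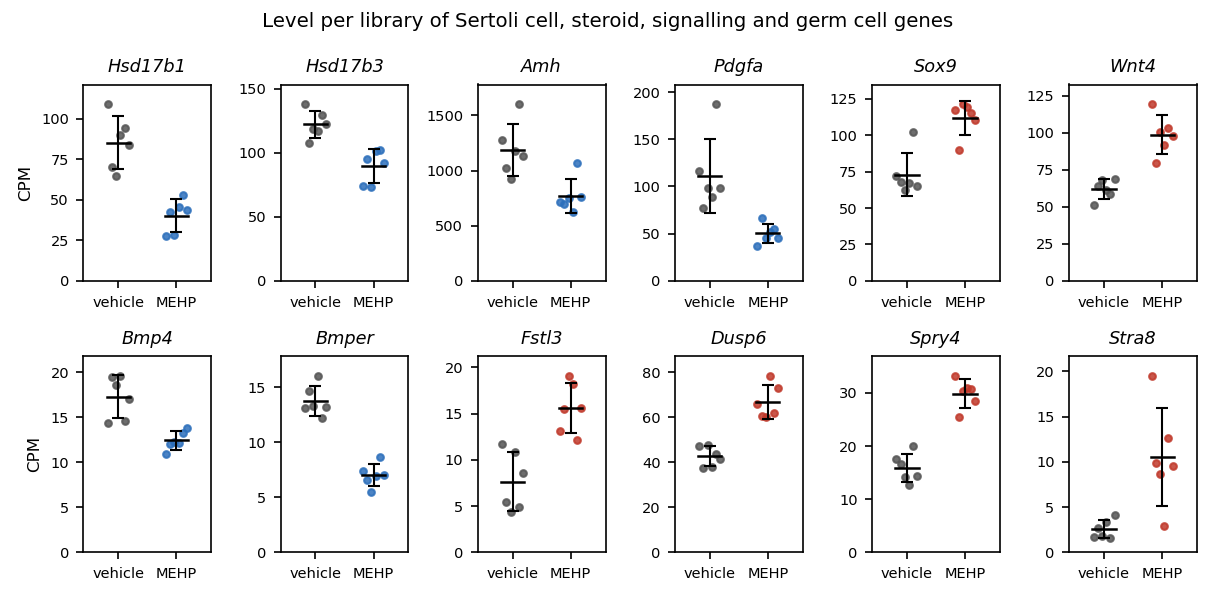
Dots are single libraries (6 vehicle in grey, 6 MEHP in colour), with the level in CPM on the y axis from 0; the line is the mean and the bar 1 SD. Hsd17b1, Hsd17b3, Pdgfa, Bmp4 and Bmper are lower with MEHP without overlap, Wnt4, Fstl3, Dusp6 and Spry4 higher without overlap, and in Amh, Sox9 and Stra8 1 library of a group reaches into the other.

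Of 18 genes of FGF signalling and of its feedback through the kinase ERK, 5 rose, 1 fell and 12 did not pass. The list holds ligand and receptor genes such as Fgf9 and Fgfr2 beside the feedback genes. Of the 6 calls, 3 passed in the 12-library fit and in every fit without 1 library, namely Etv4, Dusp6 and Spry4. Etv4, an ETS transcription factor gene induced by FGF, had 23.7 to 35.6 CPM (median 30.7) with MEHP and 8.65 to 11.7 CPM (median 9.57) in vehicle and was among the largest rises of all (1.56 ± 0.13, adjusted p = 1.07e-09). Dusp6, the phosphatase that switches ERK off, had 59.9 to 78.4 CPM (median 63.9) with MEHP and 37.5 to 47.6 CPM (median 42.5) in vehicle (0.64 ± 0.08, adjusted p = 1.95e-06), and Spry4, an inhibitor of receptor tyrosine kinase signalling, had 25.4 to 33.3 CPM (median 30.6) with MEHP and 12.6 to 20.1 CPM (median 15.5) in vehicle (0.91 ± 0.11, adjusted p = 1.13e-06). In all 3 genes the groups did not overlap. Etv5 also separated the groups (55.2 to 69.1 CPM (median 57.1) with MEHP and 35.5 to 51.98 CPM (median 43.4) in vehicle), but its call (adjusted p = 0.0498) was lost in 20 of 30 leave-one-out fits, with adjusted p reaching 0.134. The ligand gene Fgf9, of Sertoli cells, had 3.74 to 5.47 CPM (median 4.997) with MEHP and 1.84 to 4.67 CPM (median 3.3) in vehicle (0.59 ± 0.16) with the limits given above. The fall was that of Il17rd, another inhibitor (−0.30 ± 0.08; adjusted p = 0.138 in the 12-library fit). Spry2 (0.19 ± 0.09, adjusted p = 0.28) and Spred1 (0.13 ± 0.06, adjusted p = 0.344) did not pass.

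In the early growth response family, also induced through ERK in many cells, 2 genes fell. Egr3 had 0.165 to 0.558 CPM (median 0.413) with MEHP and 0.565 to 1.95 CPM (median 0.912) in vehicle (−1.44 ± 0.34, adjusted p = 0.00768), with no overlap at a low level, and Egr1 had 24.9 to 46.8 CPM (median 30.7) with MEHP and 38.00 to 63.1 CPM (median 46.8) in vehicle (−0.60 ± 0.16, adjusted p = 0.0229). Both missed the threshold in the 12-library fit (adjusted p = 0.0586 and 0.0667), and the call of Egr1 did not survive the omission of MEHP replicate 1, 3 or 5 or vehicle replicate 1 or 5, with adjusted p reaching 0.0761. Of 25 immediate early genes, the only other call was a rise of Nr4a3 (1.08 ± 0.28), lost without MEHP replicate 1 (adjusted p = 0.0599) and in the 12-library fit (adjusted p = 0.0864). Fos (−0.33 ± 0.21, adjusted p = 0.505) and Jun (−0.02 ± 0.08, adjusted p = 0.938) did not pass.

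Of 26 genes of BMP and activin signalling, 3 fell, 1 rose and 22 did not pass. In the 4 called genes the groups did not overlap. Bmper, whose product binds BMPs outside the cell, had 5.52 to 8.65 CPM (median 6.98) with MEHP and 12.2 to 16.1 CPM (median 13.3) in vehicle (−0.97 ± 0.10, adjusted p = 1.17e-07). The ligand gene Bmp4 had 10.9 to 13.9 CPM (median 12.2) with MEHP and 14.4 to 19.6 CPM (median 17.8) in vehicle (−0.48 ± 0.09, adjusted p = 0.00044). Fstl3, which encodes a binding protein that neutralises activin, had 12.1 to 19.1 CPM (median 15.6) with MEHP and 4.4 to 11.8 CPM (median 6.97) in vehicle (1.04 ± 0.21, adjusted p = 0.00185); 47.3% of its exon bases are shared with the opposite-strand gene Prss57. All 4 calls passed in the 12-library fit. The BMP response genes Id1 (−0.08 ± 0.13, adjusted p = 0.863) and Smad6 (−0.20 ± 0.21, adjusted p = 0.758) did not pass.

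Among Wnt genes, 2 of 25 rose and 1 fell, against 2.88% and 1.84% of all genes. Wnt4, known for its role in ovary formation and also expressed in the testis, had 79.2 to 119 CPM (median 99.2) with MEHP and 51.4 to 68.9 CPM (median 62.5) in vehicle, with all MEHP libraries above all vehicle libraries (0.67 ± 0.08, adjusted p = 1.66e-06). The receptor gene Fzd7 rose (0.41 ± 0.09; adjusted p = 0.0613 in the 12-library fit), and the secreted antagonist gene Sfrp4 had 5.61 to 15.9 CPM (median 12.1) with MEHP and 17.02 to 28.8 CPM (median 19.99) in vehicle (−0.84 ± 0.15, adjusted p = 0.000552). Of 15 ovarian somatic cell genes, 2 were called, Wnt4 among them, and the median was 0.01. Foxl2, the defining factor of granulosa cells, had 2.36 to 6.06 CPM (median 5.21) with MEHP and 0.796 to 4.004 CPM (median 3.1) in vehicle (0.72 ± 0.24, adjusted p = 0.0901), and the target gene Axin2 had −0.14 ± 0.10 (adjusted p = 0.56). Of 24 matrix genes, Lama4, a laminin chain of vessel basement membrane (0.46 ± 0.06, adjusted p = 1.18e-06), and Sparc (0.32 ± 0.05) rose with no overlap, and the collagen gene Col3a1 fell with no overlap (−0.25 ± 0.06, adjusted p = 0.00986).

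Stra8 is the retinoid-induced gene that germ cells need to enter meiosis (chr6:34920163-34939344). It showed the largest rise among called genes averaging at least 2 CPM over all 30 libraries, with clone and model names left out. The cultures with ATRA alone, at a mean of 142 CPM, enter that average. It had 2.91 to 19.5 CPM (median 9.71) with MEHP and 1.63 to 4.13 CPM (median 2.3) in vehicle (2.05 ± 0.42, adjusted p = 0.0021). The spread was wide: 5 of 6 MEHP libraries lay above all vehicle libraries, and the lowest lay among them. Stra8 was the 1 call among 26 meiosis genes and among 24 retinoic acid receptor and response genes, whose medians were −0.03 and 0.13. Both counts are near the share of calls over all genes tested, 4.72%. Rec8 (0.20 ± 0.23, adjusted p = 0.784), Sycp3 (0.12 ± 0.20, adjusted p = 0.863) and Rarb (0.56 ± 0.20, adjusted p = 0.132) did not pass. Sycp3 shares 52.2% of its exon bases with the opposite-strand gene Chpt1, and Rarb 34.1% with Top2b. Reads of these pairs cannot be told apart. Of 22 genes of retinoid synthesis, breakdown and binding, 3 rose and 1 fell. Dhrs3, which reduces retinaldehyde to retinol and is itself induced by retinoic acid, had 45.9 to 58.7 CPM (median 54.8) with MEHP and 30.98 to 42.6 CPM (median 35.5) in vehicle with no overlap (0.57 ± 0.07, adjusted p = 1.33e-06). The reductase gene Rdh11 also rose (0.34 ± 0.07), and Aldh1a1, which makes retinoic acid, had 884 to 1259 CPM (median 1088) with MEHP and 1244 to 1549 CPM (median 1343) in vehicle (−0.34 ± 0.09, adjusted p = 0.0157), a call lost without MEHP replicate 1 (adjusted p = 0.0599) and in the 12-library fit (adjusted p = 0.0799).

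Germ cell genes had mostly negative log2 fold changes and a single call, where 4.72% of all genes tested were called. Of 29 tested, 2 had a value above 0, the median was −0.21, and Tdrd5, of the piRNA machinery, fell (37.9 to 65.7 CPM (median 40.5) with MEHP and 44.99 to 106 CPM (median 67.5) in vehicle; −0.64 ± 0.17, adjusted p = 0.0203). That call was lost in the 12-library fit (adjusted p = 0.135) and when MEHP replicate 1 or 6 or vehicle replicate 2 was omitted, with adjusted p reaching 0.0929. Ddx4 (66.9 to 129.7 CPM (median 91.9) with MEHP and 73.3 to 133 CPM (median 103) in vehicle; adjusted p = 0.737), Dazl (−0.12 ± 0.16, adjusted p = 0.814) and Nanos2 (−0.80 ± 0.43, adjusted p = 0.41) did not pass. Nanos2 shares 49.0% of its exon bases with the opposite-strand gene Gm45058. Of 8 genes of germ cell Nodal signalling, the receptor gene Acvr1b fell (−0.18 ± 0.05; adjusted p = 0.126 in the 12-library fit). The members are genes of the same cells, so their values are not independent of each other. Germ cell content varied between libraries of both groups as given above, and its part in these values was not tested.

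All 16 endothelial genes tested had a log2 fold change above 0. The median was 0.39, and 5 rose: Cldn5 (0.86 ± 0.22), Mmrn2 (0.63 ± 0.16), Esam (0.59 ± 0.17), Pecam1 (0.42 ± 0.12) and Kdr (0.50 ± 0.15). None of the 16 passed in the 12-library fit (adjusted p = 0.0568 to 0.239 for the 5), and of the 30 leave-one-out fits, 10 lost Esam (adjusted p up to 0.0961), 14 lost Pecam1 (up to 0.147) and 17 lost Kdr (up to 0.149). The summed level of the 16 genes was 388 to 677 CPM with MEHP (median 613) and 349 to 594 CPM in vehicle (median 418); 5 of 6 MEHP libraries lay above 5 of 6 vehicle libraries, and MEHP replicate 3 and vehicle replicate 1 were the exceptions. The part of endothelial content in these values was not tested. Macrophage (13 tested), erythroid (12) and mesonephros genes (10) had 0 calls, and their sums overlapped between groups. Interstitial cells (Col3a1 of 23) and peritubular cells (Myh11 of 12) had 1 fall each, and the fall of Myh11 was lost in the 12-library fit (adjusted p = 0.0807).

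Most lists of stress and cell death genes held few calls, where 4.72% of all genes tested were called. The list of NRF2 targets held the most, 5 of 17. Bik was the 1 call of 18 BCL2 family genes, and Bax had −0.04 ± 0.06 (adjusted p = 0.853). Among 18 p53 targets the kinase gene Plk2 rose (56.96 to 92.3 CPM (median 76.7) with MEHP and 38.6 to 58.9 CPM (median 47.1) in vehicle; 0.65 ± 0.13, adjusted p = 0.00128), while Cdkn1a did not pass (0.23 ± 0.13, adjusted p = 0.456). Of 22 genes of the ATF4 amino acid response, 2 rose: Chac1, which degrades glutathione (6.87 to 13.8 CPM (median 10.03) with MEHP and 4.28 to 6.91 CPM (median 5.05) in vehicle; 0.94 ± 0.20, adjusted p = 0.00297), and Trib3 (0.52 ± 0.11). None of 18 endoplasmic reticulum chaperone and XBP1 genes and none of 18 xenobiotic enzyme and transporter genes passed. Of 17 NRF2 targets, 4 rose and 1 fell. Srxn1, which repairs oxidised peroxiredoxins, had 16.8 to 19.6 CPM (median 18.7) with MEHP and 12.2 to 16.6 CPM (median 13.3) in vehicle with no overlap (0.42 ± 0.08, adjusted p = 0.00172); the other 4, Hmox1, Osgin1, Ftl1 and Abcc1, were lost in the 12-library fit (adjusted p = 0.0713 to 0.177). Ftl1 shares 26.5% of its exon bases with the opposite-strand gene Gm10252. Of 24 proliferation genes, Ccnd2 fell (−0.35 ± 0.09; adjusted p = 0.201 in the 12-library fit), and Mki67 had −0.04 ± 0.06 (adjusted p = 0.87). Of 22 hypoxia and glycolysis genes, Pfkl rose (0.39 ± 0.11; adjusted p = 0.0704 in the 12-library fit). Of 17 cytokine and interferon genes, the adhesion molecule gene Vcam1 fell (13.1 to 17.5 CPM (median 15.5) with MEHP and 17.4 to 24.9 CPM (median 20.3) in vehicle; −0.44 ± 0.11, adjusted p = 0.0105).

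The same question was asked within the libraries that held ATRA, none of which enters the contrast above, although the fit takes its estimate of the spread from all 30. There MEHP + ATRA (4 libraries) against ATRA alone (5 libraries) called 579 of 19323 genes, 3% of those tested, 313 higher and 266 lower. Of the 556 genes that MEHP raised without ATRA, 528 had a difference above 0 with ATRA and 198 were called higher, and of the 356 that it lowered, 334 had a difference below 0 and 114 were called lower. No gene was called in opposite directions. Over all genes tested, 8944 of 19323 had a difference above 0. The cholesterol enzymes again rose, with 8 of 9 mevalonate genes and 12 of 15 later genes called, Lbr among them (0.35 ± 0.08, adjusted p = 0.00879). Mvd differed by 0.90 ± 0.09 with ATRA and 0.97 ± 0.08 without, Angptl4 by 1.10 ± 0.08 and 1.39 ± 0.07, and Elovl2 by −1.45 ± 0.19 and −2.43 ± 0.15. Hsd17b1 (−1.94 ± 0.21 with ATRA) and Hsd17b3 (−0.93 ± 0.09) fell in both. The ATF4 list differed in its count, with 11 of 22 genes called higher with ATRA, among them Asns (0.72 ± 0.14, adjusted p = 0.00247; 0.37 ± 0.13, adjusted p = 0.0931 without ATRA), but none of these genes passed the test of the difference between the effects.

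That test, an interaction term whose comparison of the presence of ATRA cannot be told apart from the range of the title numbers, called 6 of 19323 genes (0.0311%). Asic4 fell from a median of 14.2 CPM to 1.98 CPM without ATRA, and with ATRA the difference was −0.30 ± 0.24 (difference of the effects 2.35 ± 0.30, adjusted p = 0.000184). The level of Asic4 with ATRA alone was already 1.92 CPM ± 0.28 (SD, n = 5), close to that with MEHP alone. With both it was 1.57 ± 0.36 (n = 4), and in vehicle of the lower range, that of these cultures, 11.3 ± 2.4 (n = 9). For Cytip the rise of 1.69 ± 0.17 stood beside 0.32 ± 0.17 (adjusted p = 0.0121). Its mean level was 1.84 CPM ± 0.37 in upper-range vehicle (SD, n = 6) and 5.93 ± 1.81 with MEHP (n = 6). In the lower range it was 2.18 ± 0.34 in vehicle (n = 9), 12.3 ± 1.1 with ATRA (n = 5) and 15.5 ± 0.90 with both (n = 4). For Tdrp, 0.86 ± 0.08 without ATRA stood beside 0.11 ± 0.09 with it (adjusted p = 0.00566). Spata21 fell more with ATRA (−1.86 ± 0.16) than without (−0.64 ± 0.11; adjusted p = 0.00566). Plekhd1 (−0.86 ± 0.13 without and 0.21 ± 0.15 with ATRA, adjusted p = 0.0245) and Lamp5 (−0.11 ± 0.21 and −3.22 ± 0.54, adjusted p = 0.037) were the others. The value of Lamp5 with ATRA rests on few reads: its mean level was 0.46 CPM ± 0.13 with ATRA (SD, n = 5) and 0.04 ± 0.06 with both (n = 4). With the first title number as a replicate block, Asic4 and Cytip kept their calls (adjusted p = 0.00407 for both) and Tdrp, Spata21, Plekhd1 and Lamp5 lost theirs (adjusted p = 0.107, 0.0571, 0.0966 and 0.0653). With 1 library left out, Asic4, Spata21 and Tdrp passed in all 30 fits, Cytip was lost without MEHP + ATRA replicate 2 (adjusted p = 0.0512), and Plekhd1 and Lamp5 were lost in 6 and 17 fits (adjusted p up to 0.11 and 0.176), that one among them. Lamp5 also did not pass with DESeq2 (adjusted p = 0.0708) or limma-voom (adjusted p = 0.086). Stra8, at 2.05 ± 0.42 without and 0.68 ± 0.33 with ATRA, did not pass (adjusted p = 0.879).

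**Figure D5:**
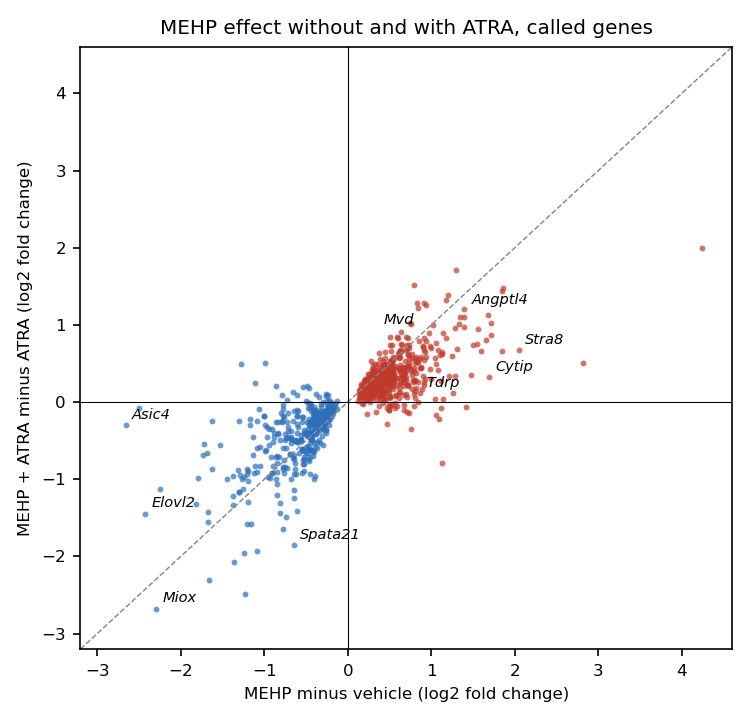
Each dot is 1 of the 912 genes called for MEHP alone: the x axis is its log2 fold change without ATRA (6 against 6 libraries) and the y axis the log2 fold change of MEHP + ATRA against ATRA (4 against 5 libraries); the dashed line marks equal values. Red genes (higher without ATRA) lie above 0 on the y axis in 528 of 556 cases and blue genes below 0 in 334 of 356, and Asic4 lies near 0 on the y axis.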

How the data were processed

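RNA was sequenced from 30 cultures of mouse fetal testis. The authors deposited raw counts of reads per gene for each library, as whole numbers for 49315 genes. The tools named in the submitters' processing notes are bcl2fastq 2.20, Trimmomatic 0.36, STAR 2.5.2b, featureCounts of Subread 1.5.2 and DESeq2. Of the genome build, the annotation and the strand setting nothing is stated there or in the labels (not given in the sources used here). Gene symbols came from a table matched by identifier.

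Genes with too few counts were removed with filterByExpr (minimum count 10). Counts were scaled by TMM, and all 30 libraries were fitted with edgeR 4.0.16 (R 4.3.3) as 5 groups, namely MEHP, vehicle with second title number above 500, vehicle with lower numbers, ATRA, and MEHP + ATRA. Tests were quasi-likelihood F tests with Benjamini-Hochberg adjustment over all 19323 genes and a threshold of 0.05. The script was tested on simulated data: of 50 genes raised by 0.5 on the log2 scale, 31 were recovered, and of 50 raised by 1, 37. CPM values are counts-per-million values on the TMM-scaled library size. Replicates are numbered in accession order within a group. Ranges are the lowest, median and highest of 6 libraries. Alternatives were a fit of 12 libraries, DESeq2 1.42.0 and limma 3.58.1 (voom with sample quality weights). Further alternatives were other size factors, no filter, a replicate block, no range term, and leaving out each library.

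Named genes were the 15 largest rises and falls among calls whose log2 CPM averaged 1 or more over all 30 libraries. Clone, model and pseudogene names were left out of that ranking. Up to 5 members of each list by p-value, called list members, and a fixed panel were also named. A few more members known as classic targets were named after their values were seen. The comparison and the gene lists were chosen with earlier results of these data known. Some genes that meet these rules are not reported here.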

Additional observations from a re-analysis of the deposited data

Results flagged for a closer look

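For 32 of the 404 groups of 6 libraries examined (202 named genes, MEHP and vehicle), 1 library lay far from the others, with a gap to its nearest neighbour above Dixon's 95% critical value as a share of the range. Chance alone flags about 1 group in 20. The values below are in CPM, with the nearest other library of the group in brackets. MEHP replicate 1 was high for Cpt1a at 307.6 (244.8). MEHP replicate 2 was low for Soat1 at 172.3 (188.8) and Sox9 at 89.52 (110.5). MEHP replicate 3 was low for Cldn5 at 8.109 (17.69) and Esam at 13.19 (22.97). MEHP replicate 4 was high for Cd74 at 3.901 (1.758), Egr1 at 46.82 (32.93), H2-Ab1 at 6.484 (3.014) and H2-K1 at 68.74 (44.7), and low for Ptgr1 at 83.14 (105.2) and Spred1 at 78.75 (86.56). MEHP replicate 5 was high for Amh at 1066 (758) and Asic4 at 3.014 (2.143) and low for Lrp8 at 15.29 (23.4). Vehicle replicate 1 was high for Esam at 20.7 (15.93), Fos at 5.268 (3.978), Grm7 at 5.531 (3.278), Minar1 at 6.848 (3.828), Myo7b at 4.636 (1.923), Nr4a3 at 1.212 (0.6048), Slc13a2 at 12.59 (11.22) and Sowahd at 1.949 (1.257). Vehicle replicate 3 was high for Acsl3 at 108.9 (81.22), Cpt1a at 187.8 (159.8), Eci2 at 85.81 (76.04) and Ggps1 at 37.44 (29.39) and low for Fasn at 550.1 (767.5). Vehicle replicate 5 was high for Cebpa at 102.1 (62.95), Pdgfa at 187.2 (116.2), Scd2 at 1960 (1625), Sfrp4 at 28.75 (20.85) and Sox9 at 102.3 (72.33).

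The effect of MEHP differed between cultures with and without ATRA in 6 genes, by the interaction term of edgeR, whose comparison cannot be told apart from the range of the title numbers. With the replicate block Asic4 and Cytip alone passed, and without MEHP + ATRA replicate 2 Cytip, Plekhd1 and Lamp5 did not. Lamp5 had few reads in the cultures with ATRA (mean 0.46 CPM with ATRA alone and 0.04 CPM with both). On the log2 scale the effect with ATRA minus the effect without was Asic4 2.354 ± 0.301 (adjusted p = 0.000184), Cytip −1.367 ± 0.236 (adjusted p = 0.0121), Lamp5 −3.104 ± 0.592 (adjusted p = 0.037), Plekhd1 1.063 ± 0.195 (adjusted p = 0.0245), Spata21 −1.214 ± 0.196 (adjusted p = 0.00566) and Tdrp −0.7503 ± 0.122 (adjusted p = 0.00566) (± SE).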

How the results depend on the processing

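The count of genes called for MEHP against vehicle, 912 (556 higher, 356 lower; 103 of at least 2-fold), depended most on which libraries entered the fit. The 12 libraries alone called 439 (297 higher, 142 lower), a fit with fewer residual degrees of freedom. With all 15 vehicle libraries as 1 group and no term for the range of the title numbers, 2229 were called (1275 higher, 954 lower; 168 of at least 2-fold), of which 838 were among the 912; the cause was not tested. Size factors of DESeq2 in edgeR gave 911, no low-count filter 724, DESeq2 1103 and limma-voom 975. Leaving out each library in turn gave 668 (without MEHP replicate 1) to 1151 (without vehicle replicate 3). MEHP + ATRA against ATRA called 579 genes, 1653 with limma-voom and its sample weights, and 340 (without MEHP + ATRA replicate 1) to 689 with 1 library left out. The test of the difference between the effects called 6 genes, 12 with DESeq2, and 3 (without MEHP + ATRA replicate 2) to 8 with 1 library left out. The causes of these differences were not tested.

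The first title number as a replicate block gave 1227 genes for MEHP against vehicle (716 in the 12 libraries alone), 623 for MEHP + ATRA against ATRA and 2 for the difference between the effects. The numbers were not taken as pairs: of 10 MEHP and vehicle pairs with the same number, 8 had deviations from the group means that correlated above 0.1 (range −0.0923 to 0.746), and the other 2 did not, although each of the 12 libraries correlated best with 1 of its own number, which is a hint from the data and not from the design.

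Of the 202 genes named, none reversed its direction where it was called, under these alternatives or with 1 library left out. Of the 155 called, 43 were lost in the 12-library fit, 18 with the block in the 12 libraries, 9 each without the filter and with limma-voom, 5 without the range term, 3 with the other size factors, 1 with DESeq2 and 0 with the block over all libraries. At 17551454 to 21936882 counts per library, genes under about 1 CPM rest on few reads.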

Other observations

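Genes of antigen presentation were seen among the falls after the values had been looked at, so the list was chosen on these data. The class II transactivator gene Ciita had 1.27 to 2.53 CPM (median 2.09) with MEHP and 3.12 to 6.01 CPM (median 4.73) in vehicle (−1.19 ± 0.16, adjusted p = 1.13e-05, edgeR), and no MEHP library reached the lowest vehicle library. The class II genes H2-Eb1 (−1.17 ± 0.15, adjusted p = 5.46e-06) and H2-Ab1 (−1.06 ± 0.28, adjusted p = 0.0196) and the invariant chain gene Cd74 (−1.12 ± 0.26, adjusted p = 0.00688) also fell. The calls of H2-Ab1 and Cd74 were lost in the 12-library fit (adjusted p = 0.141 and 0.0653), and that of H2-Ab1 also in 5 of 30 leave-one-out fits, with adjusted p reaching 0.0633. H2-Aa did not pass (−0.30 ± 0.18, adjusted p = 0.484), nor did the class I gene H2-K1 (0.18 ± 0.11, adjusted p = 0.483) and B2m (0.01 ± 0.08, adjusted p = 0.986). The class II pathway genes H2-DMa (−0.13 ± 0.15, adjusted p = 0.784) and H2-DMb1 (−0.53 ± 0.28, adjusted p = 0.379) did not pass either. The summed level of 13 macrophage genes overlapped between groups, at 77.6 to 95.7 CPM with MEHP and 51.7 to 94.9 CPM in vehicle; its part in these values was not tested.

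Other genes near the lipid pathways were also chosen after their values were seen. Acss1, which makes acetyl-CoA from acetate in mitochondria, fell (14.2 to 21.4 CPM (median 20.3) with MEHP and 22.2 to 27.9 CPM (median 25.2) in vehicle; −0.42 ± 0.08, adjusted p = 0.00104, edgeR), while its cytosolic counterpart Acss2 rose as described. Aacs, which turns acetoacetate into a precursor of lipid synthesis in the cytosol, rose (0.38 ± 0.06), and so did Pcyt2, of phosphatidylethanolamine synthesis (0.42 ± 0.05), Lpcat3, which places polyunsaturated chains on phospholipids (0.26 ± 0.04), and the acyl-CoA binding protein gene Dbi (0.38 ± 0.07). The myo-inositol transporter gene Slc5a3 fell (38.7 to 48.96 CPM (median 40.9) with MEHP and 52.5 to 58.2 CPM (median 54.9) in vehicle; −0.39 ± 0.07, adjusted p = 0.000289, edgeR), beside the fall of Miox, whose product breaks myo-inositol down.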
